A study of Mus musculus with 9 samples.

Results

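The cytosolic ribosomal protein genes were examined in polyadenylated RNA of mouse brain. Members were the protein-coding genes whose symbols are Rpl or Rps followed by a number, together with Rplp0, Rplp1, Rplp2 and Rpsa, without the Rps6k kinases, Rps3a1, Rps3a3 and symbols that hold -ps. The rule found 85 genes among 54446 gene identifiers. Of these, 52 belong to the large subunit and 32 to the small subunit by name. The remaining gene, Rps19bp1, encodes a protein that binds ribosomal protein S19 and is not a subunit itself, but its symbol fits the rule. By symbol, 76 members are core subunit genes and 8 carry a suffix that marks a paralogue or retrogene. The 9 libraries came from brain of adult male mice aged 3 to 4 months, with 3 libraries each of wild type (labelled B6N), Tfap2a+/- and Tfap2b+/-. Both mutants are heterozygous knockouts of genes for AP-2 transcription factors, which bind GC-rich DNA, and no treatment was given in the labels. The construction of the alleles, the brain region and whether replicates were separate animals are not stated in the labels. The spread behind each p-value is therefore that between these libraries. It was larger than counting error, and how much of it is technical was not tested.

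Each ribosome carries a single copy of most of these proteins, so the genes are known for being transcribed at high and similar levels in every cell type. Their mRNAs typically begin with a cytosine followed by an uninterrupted run of pyrimidines, the 5′ terminal oligopyrimidine tract, through which the kinase complex mTORC1 and the RNA-binding protein LARP1 control their translation. In neurons this control has been studied mainly in dendrites and axons. Ribosomal protein mRNAs have also been copied into the genome many times by reverse transcription, and these processed pseudogenes make their short reads hard to place.

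Pyrimidine runs near annotated starts are shown because most of the members' promoters have them and the choice of members did not use them. RefSeq promoters on GRCm38.p6, each covering 250 bases before to 50 bases after an annotated start, were found for 65 of the 85 members, in 77 promoters. Within 50 bases on either side of the start, a run of at least 8 pyrimidines beginning with C was present in 76.6% of the members' promoters and in 28.8% of 32851 promoters of all genes. The median longest run was 10 bases in the members' promoters and 6 bases in all promoters. Windows of 30 bases are printed 5′ to 3′ on the coding strand, with that longest run in capitals. Such a run need not be the tract at the beginning of the mRNA. In the windows below it began at base 35 after the annotated start in Rps21 and at base 40 in Rpl12. It began 39 bases before the start in Rpl22 and 22 before it in Rps27l.
Rps18, chr17:33955648-33955677, minus strand: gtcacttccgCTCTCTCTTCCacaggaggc
Rps21, chr2:180257399-180257428, plus strand: ggaggcacgagctaCTTCCTTTCTgcgctc
Rpl12, chr2:32961732-32961761, plus strand: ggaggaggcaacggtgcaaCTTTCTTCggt
Rpl35, chr2:39005115-39005144, minus strand: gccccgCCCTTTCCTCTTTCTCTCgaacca
Rps15a, chr7:118116143-118116172, minus strand: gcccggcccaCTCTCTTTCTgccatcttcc
Rpl22, chr4:152325679-152325708, plus strand: ccgtctgaCTCCTCCCTTTCCCgacagccg
Rps27, chr3:90213632-90213661, minus strand: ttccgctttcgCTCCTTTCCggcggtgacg
Rps27l, chr9:66946053-66946082, plus strand: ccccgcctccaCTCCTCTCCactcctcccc
Rps27rt, chr9:114982705-114982734, minus strand: cggcggtgacgaCCTCCCTacgagaacatg
Rplp0, chr5:115559467-115559496, plus strand: ggaccgcctggttCTCCTataaaaggcaca
Rps19bp1, chr15:80264335-80264364, minus strand: ccctgagctcctgCTCCagtttctgccgag
Rps18, Rps21, Rpl12, Rpl35, Rps15a and Rpl22 are among the members with the smallest p in a comparison. Rps27 is shown with its paralogue Rps27l and the retrogene Rps27rt. Where a gene has several starts, the promoter with the longest run is shown. The run had 11 bases in Rps18, 18 in Rpl35, 14 in Rpl22 and 9 in Rps27 and Rps27l, against 7 in Rps27rt. Rplp0, with 5 bases, and Rps19bp1, with 4, are shown as members in which the longest run was short. The letters CCGGAAG, on either strand, were present in 33.8% of the members' promoters and in 8.86% of all promoters. CTTTCC was present in 51.9% against 26.6%, and CTCTTTC, which overlaps it by 5 letters, in 26.0% against 8.16%. TATAAA was present in 9.09% of the members' promoters and in 13.6% of all promoters. These motifs were chosen after the sequences had been seen, and a match is a description of letters only.

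Levels are given as CPM, gene counts made comparable between libraries with TMM factors (the trimmed mean of gene ratios between libraries). A filter on low counts kept 17355 genes, including 80 of the 85 members. Those were 47 large subunit genes, all 32 small subunit genes and Rps19bp1. The 5 that did not pass were Rpl10l, Rpl24, Rpl36al, Rpl39l and Rpl3l. Per kb of transcript, the highest mean level over the 9 libraries in the large subunit was 367 CPM per kb for Rplp1, a protein of the acidic stalk that recruits translation factors. Rpl9 followed at 259 and Rpl8 at 223 CPM per kb. In the small subunit the highest were Rps15 at 325 CPM per kb, Rps21 at 230.5 and Rps27 at 226. Rplp1 had 192, 202 and 181 CPM in the wild-type libraries and Rps15 had 178, 162 and 168. Most core genes lay between the level of Rpl27, 42.1 CPM per kb, and that of Rpl9. Rps15a, at 23.0 CPM per kb, and Rps20, at 19.1, were divided by long annotated transcripts, so their levels per kb are low for that length.

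**Figure D1:**
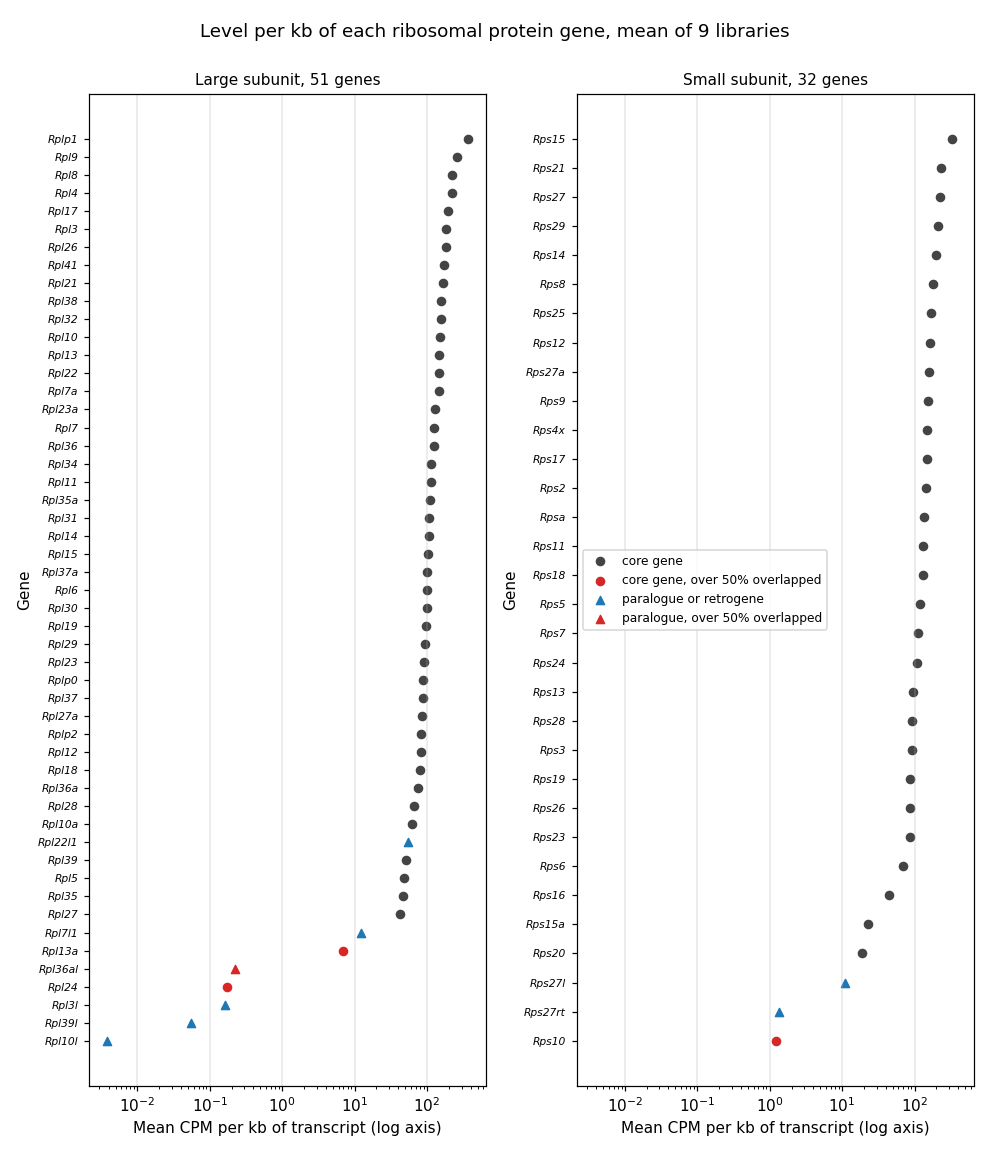
Mean CPM per kb of transcript over the 9 libraries (log axis) for 51 of the 52 large and the 32 small subunit genes, ordered by level. Grey circles are core genes, blue triangles genes with a paralogue or retrogene suffix, and red symbols genes of which over 50% of the exon bases overlap another gene on the same strand. The red symbols, Rpl13a, Rpl24, Rpl36al and Rps10, lie at the low end, while Rplp1 at 367 and Rps15 at 325 CPM per kb lead.

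A few core genes were far below the others of their subunit in every library, and over 50% of the exon bases of each overlap another gene on the same strand. Rpl24 had 0.141, 0.0753 and 0.116 CPM in the wild-type libraries, 0.103, 0.0891 and 0.138 in the libraries labelled Tfap2a+/- and 0.0706, 0.169 and 0.151 in those labelled Tfap2b+/-, about the level of 3 counts, which was 0.103 to 0.137 CPM. Of its exon bases, 71.5% are shared with Gm28037. Rpl13a had 6.57, 6.70 and 8.23 CPM in wild type, with 59.3% of its exon bases shared. Rps10 had 1.50, 1.32 and 1.12 CPM in the wild-type libraries, 1.44, 0.668 and 1.20 in the libraries labelled Tfap2a+/- and 0.918, 0.876 and 0.867 in those labelled Tfap2b+/-, with 53.6% of its bases shared with RPS10-NUDT3. Rpl36al, the autosomal paralogue of Rpl36a, had 0.0939, 0.0753 and 0.154 CPM in wild type with 63.1% shared. STAR's gene counting gives a read that falls on several genes of a strand to none of them. Its part in the low levels of these genes was not tested, and the levels are uncertain. No other member had over 50% of its bases overlapped.

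Among the paralogues, Rpl22l1, which can replace Rpl22 in mouse, had 53.7 CPM per kb against 146 for Rpl22. Rpl7l1 had 12.4 CPM per kb and Rps27l had 11.0 against 226 for Rps27. Rps27rt, a retrogene with 90.3% of its 75-base sequences in common with other genes, had 0.329, 0.527 and 0.811 CPM in the wild-type libraries, 0.308, 0.624 and 0.599 in the libraries labelled Tfap2a+/- and 0.282, 0.741 and 0.302 in those labelled Tfap2b+/-. Rpl10l and Rpl39l, which are known for expression in testis, had between 0 and 0.151 CPM in every library. Rpl3l, the counterpart of Rpl3 in heart and skeletal muscle, had 0.0939, 0.527 and 0.309 CPM in wild type. The levels of Rpl10l and Rpl39l were thus at or close to the level of 3 counts in all genotypes.

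Gene counts came to 21946800 to 29214975 per library. Of all fragments, those that fell on no annotated exon of the matching strand were 7.30% to 8.86% in wild type, 8.07% to 8.96% in the libraries labelled Tfap2a+/- and 11.1% to 11.8% in those labelled Tfap2b+/-. The mean of the targeted gene Tfap2b went against its label, but wild type and Tfap2b+/- overlapped (edgeR adjusted p = 0.598). Tfap2b had 2.25, 0.715 and 14.8 CPM in the wild-type libraries, 1.88, 2.54 and 3.96 in the libraries labelled Tfap2a+/- and 32.9, 8.90 and 5.81 in those labelled Tfap2b+/-. Wild-type replicate 3 was thus above Tfap2b+/- replicates 2 and 3. Tfap2a had 0.610, 0.263 and 0.734 CPM in the wild-type libraries, 0.445, 0.223 and 0.461 in the libraries labelled Tfap2a+/- and 1.59, 0.674 and 0.113 in those labelled Tfap2b+/-, and all groups overlapped. A count over the whole gene may include transcripts of a disrupted allele, so neither value settles the genotype. Markers of neurons, astrocytes, oligodendrocytes, microglia, endothelium and red blood cells were present in all libraries, 5 of 5 genes in each list. The summed level of 5 choroid plexus markers was 46.4, 3073 and 81.7 CPM in wild type, 851, 124 and 18.8 in the libraries labelled Tfap2a+/- and 17.3, 280.1 and 24.5 in those labelled Tfap2b+/-. The libraries thus differed in the tissue they held, and the part of this in the results below was not tested. In bulk tissue, fewer cells of a type and less RNA per cell cannot be told apart.

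Summed over the 79 tested subunit genes, ribosomal protein mRNAs made up 0.648% to 0.802% of the gene counts of a library. The sum was 7569, 7549.7 and 7740.4 CPM in wild type. It was 7832, 7949 and 6717 CPM in the libraries labelled Tfap2a+/- and 7033, 7238 and 7049 CPM in those labelled Tfap2b+/-. All 3 libraries labelled Tfap2b+/- lay below the 3 wild-type libraries, while the libraries labelled Tfap2a+/- held both the highest values and, in replicate 3, the lowest. As a share of gene counts, without TMM factors, wild type and Tfap2b+/- overlapped, with 0.734, 0.741 and 0.766% in wild type, 0.802, 0.771 and 0.648% in libraries labelled Tfap2a+/- and 0.760, 0.735 and 0.704% in those labelled Tfap2b+/-. The large subunit genes summed to 4552, 4560.1 and 4666 CPM in wild type, 4681, 4788 and 4068 in libraries labelled Tfap2a+/- and 4203, 4350.3 and 4246 in those labelled Tfap2b+/-. For the small subunit the sums were 3016, 2989.6 and 3074, then 3151, 3161 and 2648, and 2830.0, 2887 and 2803 CPM in the same order. Both subunits were highest in Tfap2a+/- replicate 2 and lowest in Tfap2a+/- replicate 3.

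The ratio of large to small subunit CPM was 1.51, 1.53 and 1.52 in wild type. It was 1.49, 1.51 and 1.54 in the libraries labelled Tfap2a+/- and 1.49, 1.51 and 1.51 in those labelled Tfap2b+/-. Group means were 1.52 ± 0.01, 1.51 ± 0.03 and 1.50 ± 0.02 (SD, n = 3), and the groups overlapped. With every gene weighing the same, the mean deviation of large minus small subunit genes was between -0.03 and 0.03 (log2) in each library.

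**Figure D2:**
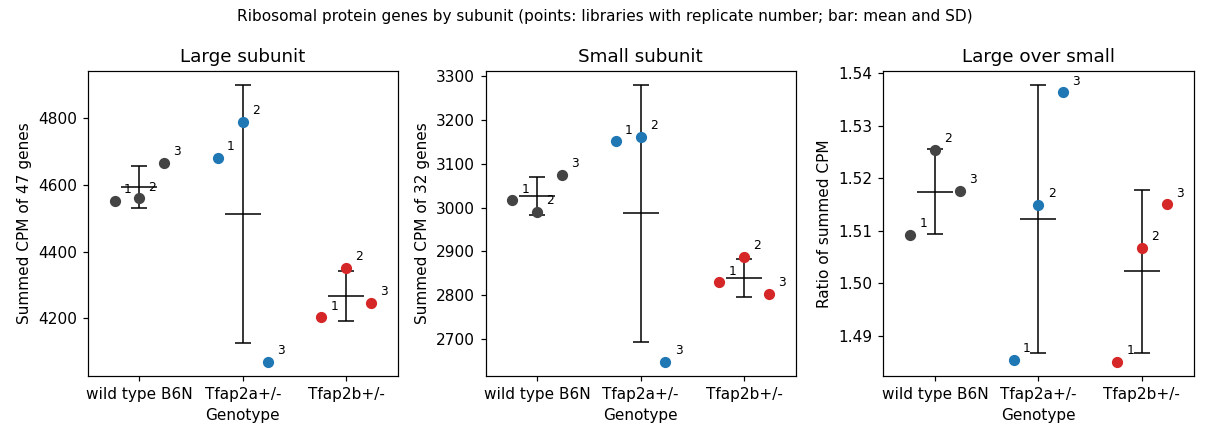
Summed CPM of the 47 large and the 32 small subunit genes tested and their ratio, for each library by genotype, with the replicate number beside each point and the mean and SD as bars. The axes do not start at 0. With TMM factors both sums are lower in all libraries labelled Tfap2b+/- than in wild type, while the shares of gene counts without them overlap, and both sums are lowest in Tfap2a+/- replicate 3, while the ratio stays between 1.49 and 1.54 in every library.

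The genes moved together from library to library. A deviation is the log2 CPM of a gene minus its mean over the 9 libraries. Its median over the 79 genes was 0.0185, 0.0327 and 0.0646 in wild type, 0.0741, 0.0943 and -0.141 in the libraries labelled Tfap2a+/- and -0.0932, -0.0223 and -0.0633 in those labelled Tfap2b+/-. In Tfap2a+/- replicate 3, 5 of the 79 genes were above their own mean, against 73 and 74 in replicates 1 and 2 of that genotype. In wild type 54, 57 and 70 genes were above their mean, and in the libraries labelled Tfap2b+/- 15, 26 and 14. Such counts over other genes are not given here, so whether this movement was particular to the members was not tested. Tfap2a+/- replicate 3 was also the library with the lowest summed oligodendrocyte markers, at 5139, 3850.0 and 1982 CPM in replicates 1, 2 and 3, against 4245, 6354 and 4640.0 in wild type and 6484, 5979 and 2361 in libraries labelled Tfap2b+/-. The same library had the highest summed neuron markers of the 9 libraries, 6534 CPM against 6311 in wild-type replicate 1. It was also highest for astrocyte markers, 5605 CPM against 5600 in Tfap2a+/- replicate 2, and for red blood cell markers, 107 CPM against 106 in wild-type replicate 1. The part of these cells in the ribosomal protein level was not tested. The spread of a member was small, with a median SD of log2 CPM over the libraries of 0.10, against 0.14 for the 6317 genes with at least 30 CPM.

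**Figure D3:**
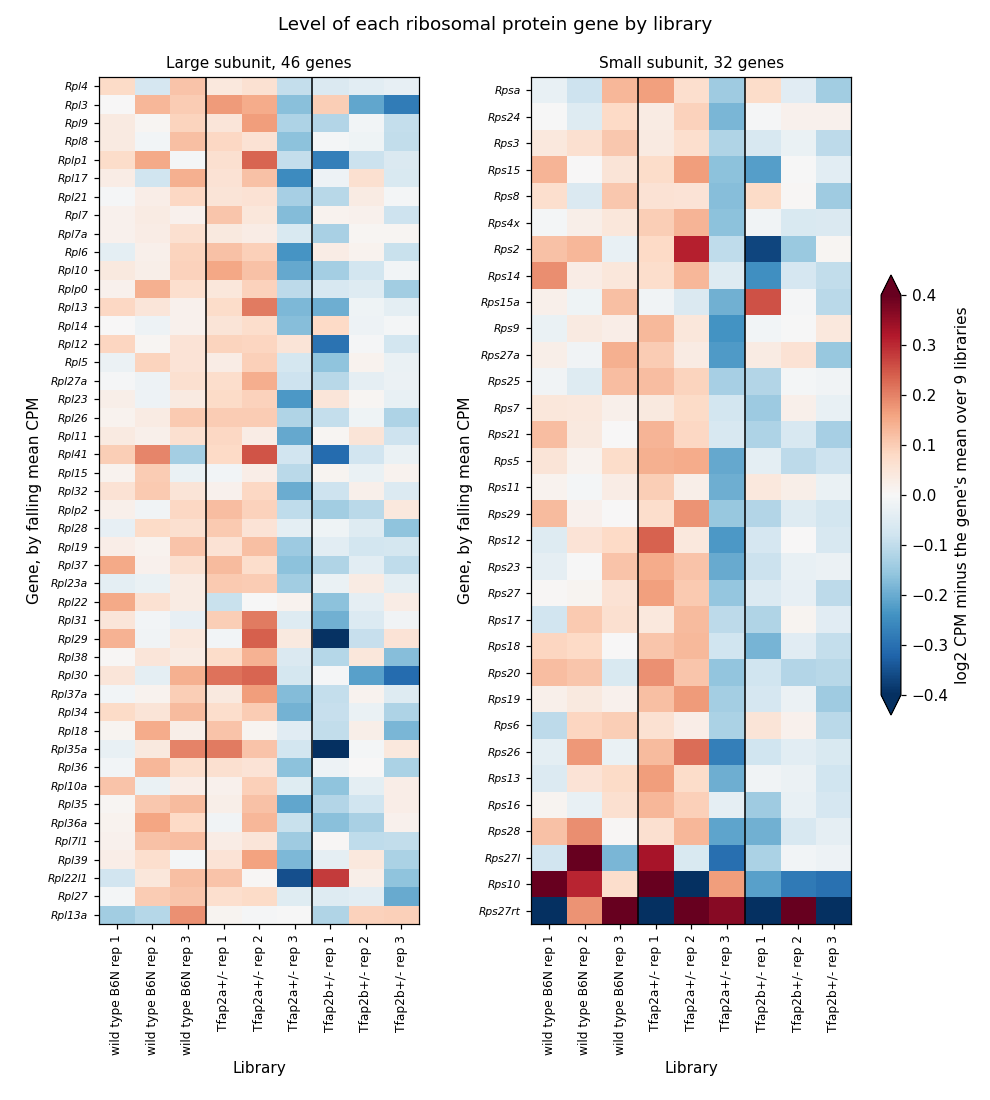
Deviation in each library of 46 of the 47 large and of the 32 small subunit genes tested (log2 CPM minus the mean of the gene over the 9 libraries, with colours ending at 0.4 in either direction). Rows are ordered by falling mean CPM and black lines part the genotypes. Nearly the whole column of Tfap2a+/- replicate 3 is blue, with 5 of 79 genes above their mean, and single genes such as Rpl35a and Rps2 in Tfap2b+/- replicate 1 stand out from their column.

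In libraries labelled Tfap2b+/- most members were slightly lower than in wild type, and none passed the test. The fitted log2 fold change was under 0 in 74 of 80 members, against 50.3% of all genes tested. The members' median was -0.10, that of the large subunit -0.11 and that of the small subunit -0.09, while the median of all genes was -0.0012. No member was called at an adjusted p under 0.05 (0% of all genes by edgeR), and the smallest adjusted p of a member was 0.446. At an unadjusted p under 0.05 there was 1 member, Rps14, against 10.6% of all genes. DESeq2 called 0 members and 175 genes in all, where 17355 genes were tested. With so few genes called, 0 of 80 members does not set the members apart from other genes. In 32 of 80 members, 16 of the large subunit, 15 of the small subunit and Rps19bp1, all libraries labelled Tfap2b+/- lay below all wild-type libraries, against 7.63% of all genes. In 0 of 80 they lay above, against 8.84% of all genes. When libraries were scaled to their totals without TMM factors, 9 members lay below (3.75% of all genes) and 55 had a fold change under 0, and the median was -0.03 for members and 0.07 for all genes. The members' median minus that of all genes was -0.10 under both scalings. Scaling moves the fold changes of all genes by nearly the same amount, so this difference could hardly change and does not test the scaling.

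Markers of some cell types also had fold changes of one direction between these groups, though most of their sums overlapped. All 5 neuron markers had a log2 fold change under 0 in Tfap2b+/- against wild type, with a median of -0.24, and their summed level was 6311, 5114 and 5476 CPM in wild type and 3974, 5191 and 5146 in libraries labelled Tfap2b+/-. All 5 microglia markers were also under 0, with a median of -0.21 and sums of 258, 256 and 225 against 163, 246 and 244 CPM. Both sums overlapped between the groups and were lowest in Tfap2b+/- replicate 1. The 5 choroid plexus markers were under 0 as well, with a median of -2.93. Their sums overlapped too, at 46.4, 3073 and 81.7 CPM in wild type against 17.3, 280.1 and 24.5. Wild-type replicate 2 was far above the other libraries of both groups. The medians were -0.0048 for astrocyte, -0.0055 for oligodendrocyte, 0.17 for endothelium and 0.0047 for red blood cell markers, and no marker was called by edgeR. The summed astrocyte markers did separate the groups, although 2 of the 5 genes were above 0 and 3 under 0. Their sums were 5109, 4768 and 4904 CPM in wild type and 3691, 4635 and 4467 in libraries labelled Tfap2b+/-. The part of these cells in the members' fold changes was not tested. Without the 3 libraries that earlier results named as high in choroid plexus or hindbrain genes, 75 members were under 0 and the median was -0.08.

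Other short and abundant mRNAs had similar fold changes. Protein-coding genes outside the rule with a transcript of up to 1000 bases and at least 30 CPM numbered 168, and their median log2 fold change was -0.10, with 82.7% under 0 and 27.4% with all libraries labelled Tfap2b+/- below wild type. For genes of at least 30 CPM with transcripts over 4000 bases the median was -0.02. The members' median was -0.13 for the 16 members with up to 20% of 75-base sequences shared with other genes, -0.10 for the 35 members with 20% to 60% and -0.10 for the 29 with over 60%. The 4 members on the X chromosome, Rpl10, Rpl36a, Rpl39 and Rps4x, had a median of -0.10. Fold changes thus differed with the length of a transcript, and the share of reads outside exons differed between the groups. The part of both in the members' fold changes was not tested.

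**Figure D4:**
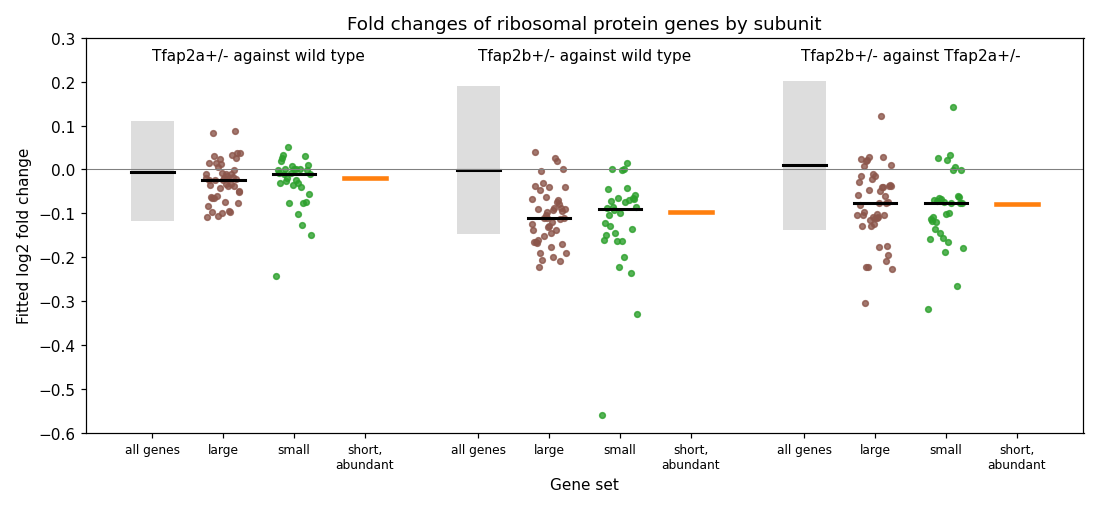
Fitted log2 fold changes of the 47 large (brown) and 32 small (green) subunit genes in each comparison, with the median as a black line. Grey bars show the quartiles and median of all 17355 genes tested, and orange lines the median of the 168 other protein-coding genes of at least 30 CPM with transcripts up to 1000 bases. In Tfap2b+/- against wild type the subunits' medians are -0.11 and -0.09, and that of the short, abundant genes is -0.10.

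The member with the smallest p in Tfap2b+/- against wild type was Rps14, a protein of the small subunit platform whose loss of a copy is known from a human myelodysplastic syndrome. It had 135, 121 and 123 CPM in the wild-type libraries, 125, 131 and 115 in the libraries labelled Tfap2a+/- and 100.3, 114 and 111 in those labelled Tfap2b+/-. The highest library labelled Tfap2b+/- was below the lowest wild-type library, and the log2 fold change was -0.22 (SE 0.08, edgeR adjusted p = 0.446). Rps21, a small subunit protein, had 98.7, 93.0 and 90.8 CPM in the wild-type libraries, 99.5, 95.9 and 86.7 in the libraries labelled Tfap2a+/- and 83.2, 86.7 and 82.7 in those labelled Tfap2b+/-. Its groups did not overlap either, with a fold change of -0.16 (SE 0.07, edgeR adjusted p = 0.484).

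Of the stalk, which holds Rplp0 at its base with Rplp1, Rplp2 and Rpl12, Rplp0 had 121, 132 and 125 CPM in the wild-type libraries, 123, 128 and 111 in the libraries labelled Tfap2a+/- and 114, 115 and 109 in those labelled Tfap2b+/-. Each library labelled Tfap2b+/- was lower than each of wild type, with a log2 fold change of -0.16 (SE 0.08, edgeR adjusted p = 0.490). For Rplp1 the values were 192, 202 and 181 CPM in wild type and 151, 172 and 175 in libraries labelled Tfap2b+/-, a log2 fold change of -0.21 (SE 0.10, edgeR adjusted p = 0.499). Rplp2 had 80.9, 79.0 and 84.5 CPM against 72.3, 73.9 and 82.1, and these groups overlapped. Rpl12 had 107, 102 and 105 CPM in the wild-type libraries, 107, 107 and 105 in the libraries labelled Tfap2a+/- and 82.2, 100.5 and 95.9 in those labelled Tfap2b+/-. Replicate 1 labelled Tfap2b+/- was lowest, and the fold change was -0.17 (SE 0.08, edgeR adjusted p = 0.497).

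Rps18, a protein of the small subunit head, had 76.6, 76.3 and 72.3 CPM in wild type and 63.5, 70.0 and 67.7 in libraries labelled Tfap2b+/-, with a fold change of -0.16 (SE 0.08, edgeR adjusted p = 0.496). Rpl27 had 25.6, 27.7 and 27.9 CPM against 24.9, 25.0 and 22.4, with a fold change of -0.17 (SE 0.08, edgeR adjusted p = 0.497). Neither gene overlapped between these groups. Rps19bp1, also called AROS and known as a regulator of the deacetylase SIRT1, had 10.1, 9.30 and 10.2 CPM in the wild-type libraries, 9.79, 9.53 and 10.00 in the libraries labelled Tfap2a+/- and 8.12, 8.26 and 9.05 in those labelled Tfap2b+/-. It was lower in all libraries labelled Tfap2b+/- than in the other 6 libraries, with a fold change against wild type of -0.22 (SE 0.10, edgeR adjusted p = 0.482). The lowest fold change of a member was -0.56 for Rps10, and the highest was 0.04 for Rpl13a, both with the overlap and the uncertain levels described above. Rpl5 and Rpl11, which can bind the ubiquitin ligase MDM2 outside the ribosome, had log2 fold changes of -0.10 and -0.05, and Mdm2 itself was not called.

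Against wild type, the libraries labelled Tfap2a+/- showed no common shift that all 3 shared. The log2 fold change was under 0 in 57 of 80 members (51.8% of all genes), with a median of -0.02 for members, -0.02 for the large subunit, -0.01 for the small subunit and -0.01 for all genes. No member was called (0% of all genes by edgeR), and the smallest adjusted p of a member by edgeR was 0.999. In the same test 0 members had an unadjusted p under 0.05, against 3.84% of all genes. DESeq2 called 0 members and 30 genes in all, where 17355 genes were tested. These are too few for 0 of 80 members to set the members apart. Without Tfap2a+/- replicate 3, 13 of 80 members were under 0 and the median was 0.06. All libraries labelled Tfap2a+/- lay below wild type in 1 of 80 members, against 4.32% of all genes, and above it in 0 of 80, against 4.85%. That member was Rpl22, which binds RNA at the outer surface of the large subunit and whose loss is tolerated in mice. Rpl22 had 76.6, 72.0 and 70.7 CPM in the wild-type libraries, 64.8, 68.9 and 69.7 in the libraries labelled Tfap2a+/- and 61.6, 67.3 and 70.4 in those labelled Tfap2b+/-. The lowest wild-type library was above the highest library labelled Tfap2a+/-, and the log2 fold change was -0.11 (SE 0.07, edgeR adjusted p = 0.999). Its paralogue Rpl22l1 had 27.9, 30.4 and 32.1 CPM in the wild-type libraries, 31.9, 29.6 and 23.1 in the libraries labelled Tfap2a+/- and 35.8, 29.9 and 26.4 in those labelled Tfap2b+/-, and the fold change was -0.10 (SE 0.15, edgeR adjusted p = 0.999). The groups of the paralogue overlapped. As edgeR called 0% of all genes here, the calls cannot show whether Rpl22l1 moved against Rpl22.

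In most of the other members with the smallest p in Tfap2a+/- against wild type, replicate 3 was the lowest library. Rpl7l1, a paralogue of Rpl7, had 32.5, 34.9 and 35.0 CPM in wild type and 32.8, 33.2 and 29.1 in the libraries labelled Tfap2a+/-, with a fold change of -0.11 (SE 0.08, edgeR adjusted p = 0.999). Rpl32 had 84.2, 87.0 and 83.8 against 81.8, 85.7 and 70.5 CPM. Rps3, which lines the mRNA entry channel and also has a repair endonuclease activity, had 179, 182 and 187 against 178, 182 and 160.0 CPM, with a fold change of -0.07 (SE 0.07, edgeR adjusted p = 0.999). In each of these 3 genes Tfap2a+/- replicate 3 was the lowest of all 9 libraries. Fold changes were -0.13 for Rps15a, -0.10 for Rpl35 and 0.09 for Rpl31, with adjusted p of 0.999 in each by edgeR. Rpl31, which sits at the exit of the peptide tunnel, had 69.7, 66.8 and 66.0 CPM in wild type and 72.2, 77.9 and 65.0 in libraries labelled Tfap2a+/-, with the highest level in replicate 2.

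Between the mutants, members were lower in libraries labelled Tfap2b+/- in 67 of 80 cases (48.3% of all genes), with a median log2 fold change of -0.08 for members and for each subunit and 0.01 for all genes. This comparison and the one of Tfap2b+/- with wild type share their Tfap2b+/- libraries. No member was called (0% of all genes by edgeR), and the smallest adjusted p of a member by edgeR was 0.390. DESeq2 called 0 members and 221 genes in all, where 17355 genes were tested. Here too the genes called are too few for 0 of 80 members to set the members apart. At an unadjusted p under 0.05 there were 2 members, Rpl30 and Rpl12, against 11.5% of all genes. All libraries labelled Tfap2b+/- lay below all labelled Tfap2a+/- in 3 of 80 members, Rpl12, Rps14 and Rps19bp1, against 8.03% of all genes, and above in 0 of 80, against 9.2%. Without Tfap2a+/- replicate 3 the median was -0.16 with 78 members under 0, and without Tfap2a+/- replicate 2 it was -0.04 with 58 under 0.

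Rpl30, which also binds its own transcript in yeast, had 58.0, 54.6 and 62.0 CPM in the wild-type libraries, 65.3, 66.0 and 53.5 in the libraries labelled Tfap2a+/- and 55.9, 48.3 and 45.4 in those labelled Tfap2b+/-. Replicates 2 and 3 labelled Tfap2b+/- were the lowest of the 9 libraries, while replicate 1 lay among the others, and the log2 fold change between the mutants was -0.31 (SE 0.11, edgeR adjusted p = 0.390). For Rpl12 it was -0.20 (SE 0.08, edgeR adjusted p = 0.421) and for Rps14 -0.19 (SE 0.08, edgeR adjusted p = 0.437). Rps2, at the mRNA entry, had 152, 154 and 138 CPM in the wild-type libraries, 148, 174 and 131 in the libraries labelled Tfap2a+/- and 109, 127 and 141 in those labelled Tfap2b+/-. It was lowest in Tfap2b+/- replicate 1 and highest in Tfap2a+/- replicate 2, with a fold change of -0.27 (SE 0.13, edgeR adjusted p = 0.458). Rps21, Rps18, Rps19bp1 and Rpl31 had fold changes of -0.16, -0.16, -0.21 and -0.17. Rpl22l1 and Rps15a were the members with the highest fold changes between the mutants, at 0.12 and 0.14.

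A few members departed from the common movement in single libraries labelled Tfap2b+/-, chosen here after their values were seen. Rpl35a, whose human counterpart is a Diamond-Blackfan anaemia gene, had 52.1, 54.7 and 61.1 CPM in the wild-type libraries, 61.4, 57.6 and 50.6 in the libraries labelled Tfap2a+/- and 37.9, 52.9 and 54.8 in those labelled Tfap2b+/-. Replicate 1 labelled Tfap2b+/- was far below the other libraries. The same library was lowest for Rpl29, at 50.8, 62.6 and 69.3 CPM in replicates 1, 2 and 3, against 73.5, 66.2 and 68.7 in wild type. It was highest for Rps15a, with 140.1, 117 and 109 CPM against 119, 116 and 128 in wild type, and for Rpl22l1. Rpl3, which helps to form the peptidyl transferase centre, had 248, 271 and 266 CPM in the wild-type libraries, 278, 274 and 221 in the libraries labelled Tfap2a+/- and 265, 215 and 204 in those labelled Tfap2b+/-. In Rpl3, replicates 2 and 3 labelled Tfap2b+/- were the lowest of the 9 libraries.

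Sequence shared with other genes limits how far such values can be read. A median of 47.9% of a member's 75-base sequences, the read length, also occurred in transcripts of other genes, from 0% to 98.5%. Pseudogenes that share such a sequence were found for 79 members, with a median of 4 per member and up to 61 for Rpl7a. Counts assigned to the 300 genes named as ribosomal protein pseudogenes came to 20.8 to 22.3 CPM of library totals in wild type and 20.0 to 23.5 in libraries labelled Tfap2a+/-. In those labelled Tfap2b+/- they came to 24.9, 30.5 and 39.9 CPM of library totals. Single copies were far higher in some libraries than in others. The processed pseudogene Rpl3-ps1 had 1.48, 10.0 and 11.5 CPM in replicates 1, 2 and 3 labelled Tfap2b+/-, against 2.25, 1.84 and 1.31 in wild type and 1.78, 1.74 and 1.52 in those labelled Tfap2a+/-. The replicates that were high for Rpl3-ps1 were those that were low for Rpl3.

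The clearest such case was Rps3a1, a small subunit gene that the rule leaves out. Rps3a1 had 154, 147 and 161 CPM in the wild-type libraries, 151, 152 and 128 in the libraries labelled Tfap2a+/- and 93.5, 94.8 and 137 in those labelled Tfap2b+/-. Replicates 1 and 2 labelled Tfap2b+/- were well below the other 7 libraries, and the log2 fold change against wild type was -0.51 (SE 0.15, edgeR adjusted p = 0.366). Its processed copy Rps3a3 had 0.235, 0.715 and 0.618 CPM in wild type, 0.411, 0.223 and 0.184 in libraries labelled Tfap2a+/- and 20.5, 21.2 and 0.490 in those labelled Tfap2b+/-. Rps3a2, another copy, had 1.41, 0.790 and 0.965, 0.959, 1.29 and 1.01 and 3.71, 3.81 and 1.02 CPM in the same order. Both copies were high in exactly the replicates in which Rps3a1 was low, and the part of the copies in the count of the parent gene was not tested. In the libraries labelled Tfap2b+/-, Rps15a-ps7 had 0.106, 0.0674 and 3.21 CPM across replicates 1, 2 and 3, Rps13-ps1 had 0, 0.0337 and 3.39 and Gm10036, a copy of Rpl11, had 0.0706, 0 and 4.41 in the same libraries. Rpl15-ps2 had 1.13, 0.977 and 0 CPM and Gm10020, also a copy of Rpl15, 1.20, 1.72 and 0. In wild type each of these 5 copies had at most 0.141 CPM in a library. Their parents did not all show a matching drop. Rpl15 had 82.4, 87.5 and 80.1 CPM in wild type and 82.1, 80.0 and 82.4 in libraries labelled Tfap2b+/-, and these groups overlapped, although replicates 1 and 2 were high for its copies. Rps13 had 53.8, 58.0 and 58.9 against 55.3, 54.9 and 52.8 CPM and Rpl11 97.4, 96.4 and 99.4 against 95.6, 98.5 and 89.8, with the lowest of these 6 values in replicate 3 labelled Tfap2b+/- for both genes. Rps15a, with the values given above, was likewise lowest of these libraries in that replicate, in which Rps15a-ps7 was high. Rpl11 was lower, at 82.5 CPM, in Tfap2a+/- replicate 3, where its copy Gm10036 had 0.138 CPM.

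**Figure D5:**
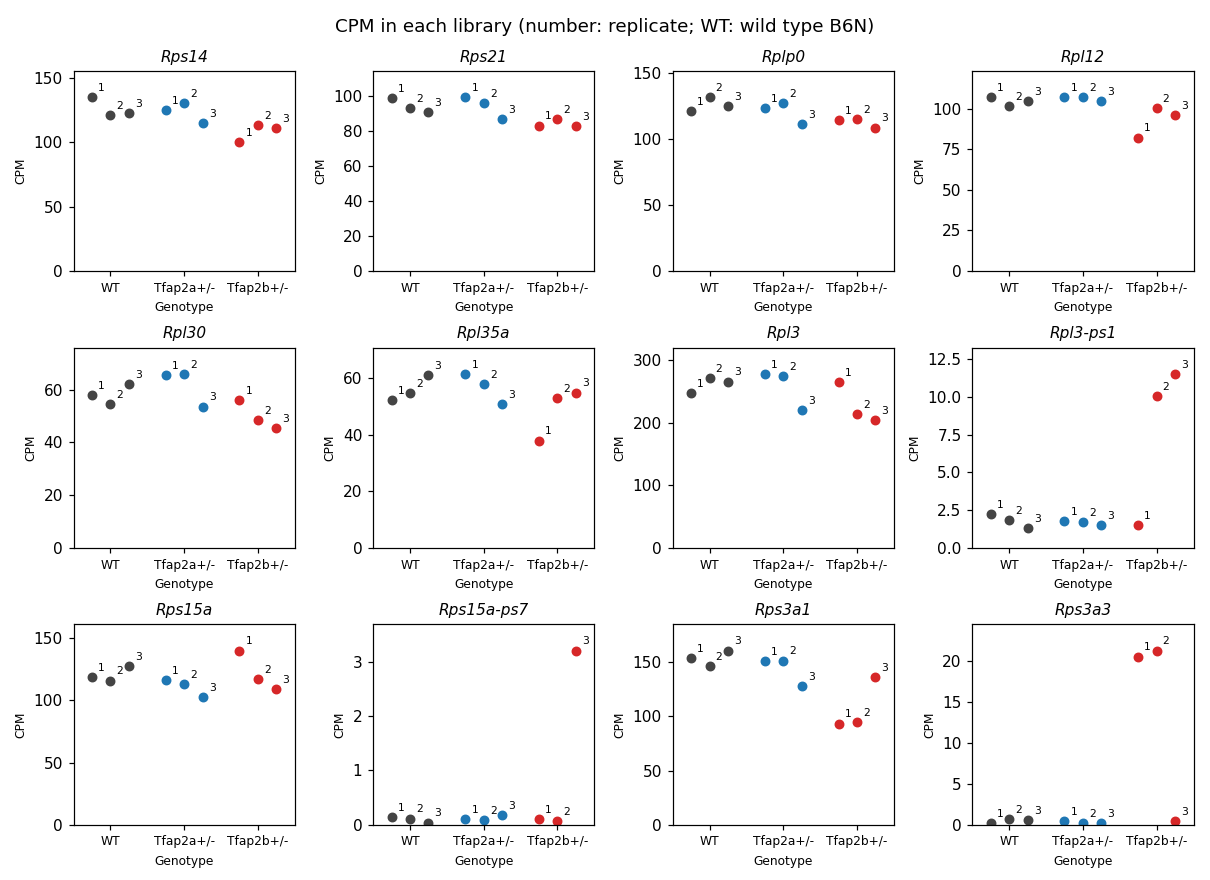
CPM in each library, with the replicate number beside each point, for members with the smallest p (Rps14, Rps21, Rplp0, Rpl12, Rpl30), members that stand apart in single libraries (Rpl35a, Rpl3, Rps15a), Rps3a1, and 3 processed copies. Axes start at 0. Rpl3-ps1 is at 1.48, 10.0 and 11.5 and Rps3a3 at 20.5, 21.2 and 0.490 CPM in replicates 1, 2 and 3 labelled Tfap2b+/-, and Rpl3 and Rps3a1 are low in the replicates in which their copies are high.

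Fau and Rack1, which the rule leaves out, were not called by edgeR. Fau, which encodes a ubiquitin-like protein fused to a small subunit protein, had 67.6, 70.5 and 72.1 CPM in wild type and 61.9, 64.9 and 65.6 in libraries labelled Tfap2b+/-, a log2 fold change of -0.13 (SE 0.09, edgeR adjusted p = 0.620). Rack1, a signalling scaffold bound to the small subunit head, had 118, 116 and 122 against 109.6, 117 and 109 CPM, with a fold change of -0.08 (SE 0.06, edgeR adjusted p = 0.633).

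In genes that make or use ribosomes, no member of any list was called in any comparison (0% of all genes by edgeR). In libraries labelled Tfap2b+/- against wild type, the 77 tested mitochondrial ribosomal protein genes had a median log2 fold change of -0.07 with 54 under 0, and in 16 the groups did not overlap and were lower (7.63% of all genes), against 3 that were higher (8.84%). Mrps12, of the small mitochondrial subunit, had 22.8, 22.8 and 22.5 CPM in wild type and 16.9, 17.8 and 18.8 in libraries labelled Tfap2b+/-, with a fold change of -0.35 (SE 0.10, edgeR adjusted p = 0.360). Mrpl9 had a fold change of -0.25 (SE 0.08, edgeR adjusted p = 0.406). Of 34 initiation factors, 28 were under 0, with a median of -0.08. Eif2s1, the alpha subunit of eIF2 whose phosphorylation slows initiation, had a fold change of -0.22, and Eif4a1, an RNA helicase, one of -0.25. Of 13 elongation and release factors, 12 were under 0, with a median of -0.09. Eif5a, which relieves stalled ribosomes, had -0.27 and Etf1, the release factor that reads stop codons, -0.17.

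Assembly factors and regulators held genes of both directions. Among 57 ribosome biogenesis factors 38 were under 0, with a median of -0.06. The 2 genes of smallest p in that list were both higher, Mdn1, a large AAA ATPase that strips factors from the large subunit, with 58.4, 60.7 and 70.0 CPM in wild type against 114, 86.1 and 79.8, and Taf1b, a factor of RNA polymerase I, with 13.5, 14.4 and 13.8 against 17.9, 15.5 and 18.1 CPM. Their adjusted p were 0.317 and 0.369 by edgeR. Among 24 regulators of mTORC1 and of mRNAs with a 5′ tract, 14 were under 0, with a median of -0.02. Tia1 and its relative Tial1, which bind such mRNAs under stress, had 66.0, 53.6 and 63.4 CPM in wild type against 91.0, 83.1 and 104 and 78.4, 66.8 and 78.5 against 93.9, 88.3 and 90.3. All libraries labelled Tfap2b+/- were above wild type for both, with log2 fold changes of 0.60 (SE 0.11, edgeR adjusted p = 0.260) and 0.29 (SE 0.08, edgeR adjusted p = 0.369). Of 14 quality control and stress genes, 7 were under 0, with a median of 0.02. Eif2ak2, the kinase PKR that senses double-stranded RNA, had a fold change of 0.50 with overlapping groups, and Rnf10, a ubiquitin ligase of stalled small subunits, one of -0.26. In contrast, all 7 nuclear noncoding RNAs tested had fold changes above 0, with a median of 0.61. Malat1 had 832, 677 and 763 CPM in wild type, 1059, 737 and 1077 in libraries labelled Tfap2a+/- and 1492, 1388 and 1195 in those labelled Tfap2b+/-, and the fold change was 0.84 (SE 0.16, edgeR adjusted p = 0.260). For Kcnq1ot1 it was 1.08 (SE 0.18, edgeR adjusted p = 0.205). The part of these nuclear RNAs in the lower ribosomal protein CPM was not tested.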

How the data were processed

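Per the labels' protocols, total RNA of mouse brain went through selection of polyadenylated RNA and a dUTP kit that keeps the strand, and was sequenced as read pairs of 75 bp. The authors deposited whole-number counts per gene, 1 table per library, laid out as STAR writes its counts. Cutadapt 2.4 and STAR 2.6.1d, with edgeR and the build GRCm38.p6, are listed in the submitters' processing notes. Annotation and counting settings are not given in the sources used here. Reverse-strand counts were used. Of 54446 identifiers, 54409 matched GENCODE M21 ignoring versions. Library sizes and tests left out rows without a gene: reads outside sense exons (7.30% to 11.8% of fragments), at several positions (5.33% to 6.20%), on several genes (1.10% to 1.21%) and unmapped (1.21% to 1.74%). No other columns of samples were left over.

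Genes were filtered with filterByExpr and tested with edgeR 4.0.16 (R 4.3.3; limma 3.58.1) by the quasi-likelihood F-test, with TMM factors, genotype as the sole covariate in a fit of all 9 libraries, and Benjamini-Hochberg adjustment over 17355 genes. CPM are TMM-scaled. A count of 0 allows up to 3 counts, 0.103 to 0.137 CPM of library totals. Such floors cover counting error only. Between replicates, chi-square per degree of freedom was at least 20.6, beyond counting error. Each library was treated as a replicate of its own, but this value cannot show that the libraries came from separate animals. Levels per kb used a protein-coding transcript of each gene, preferring those marked principal (APPRIS), then CCDS, then the best support level. Remaining ties went to the shortest. Steps were tested on simulated data. Promoters are from RefSeq.

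The members and lists were chosen with earlier results of these data known. Named genes were the members called, the 8 of smallest p in each comparison, the 3 of highest CPM per kb in each subunit, tested paralogues, Rps3a1, Fau, Rack1, Tfap2a, Tfap2b and the 2 of smallest p in each list in the comparison described; others were chosen after their values were seen. Some genes that this rule names are not reported here. Alternatives were DESeq2 1.42.0, 2 other scalings, no filter, unstranded counts, a replicate block, only the 6 libraries compared and libraries left out.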

Additional observations from a re-analysis of the deposited data

How the results depend on the processing

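No member was called in any comparison under any of the alternatives run. Counts of all genes called did depend on the test: DESeq2 called 30 genes in Tfap2a+/- against wild type, 175 in Tfap2b+/- against wild type and 221 between the mutants, where edgeR called 0. Without the filter on low counts edgeR called 2 genes in Tfap2a+/- against wild type and 7 between the mutants. Without the 3 libraries that earlier results named as high in choroid plexus or hindbrain genes it called 2 genes in Tfap2b+/- against wild type and 1 between the mutants. With each library left out in turn, it called 0 to 3, 0 to 4 and 0 to 31 genes in the 3 comparisons, the most without Tfap2a+/- replicate 2 in the first and without Tfap2b+/- replicate 3 in the others.

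Members with a fold change under 0 in Tfap2b+/- against wild type ranged from 68 to 78 of 80 with each library left out, with medians from -0.12 to -0.08. For Tfap2a+/- against wild type they ranged from 13, without Tfap2a+/- replicate 3, to 71, with medians of 0.059 and -0.065. Between the mutants they ranged from 54 to 78, with medians from -0.037, without Tfap2a+/- replicate 2, to -0.16, without Tfap2a+/- replicate 3. Members whose groups did not overlap and were lower were 9 in Tfap2b+/- against wild type (3.75% of all genes) and 1 between the mutants (5.39%) with library totals. Without the 3 libraries above they were 6 in Tfap2a+/- against wild type (17.4% of all genes), 44 in Tfap2b+/- (18.6%) and 6 between the mutants (18.9%). Both alternatives for this count were added after the data were seen. The ratio of large to small subunit was 1.491, 1.485 and 1.477 in wild type, Tfap2a+/- and Tfap2b+/- with unstranded counts, and 1.499 in wild type and 1.484 in Tfap2b+/- with core members only. Causes of these shifts were not tested.

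Deviations of same-numbered libraries had correlations from -0.35 to 0.34. Libraries with different numbers were not set beside them, so this range does not settle whether the replicate numbers pair the libraries. With a replicate block, 0 genes and 0 members were called in each comparison, and 60, 76 and 67 members had a fold change under 0. Reads in near-identical copies and in overlapping genes leave the levels of single members uncertain.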
